A study of Mus musculus with 8 samples.

Results

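The Lce1 genes encode late cornified envelope proteins, small proteins that are added to the envelope of the dying keratinocyte after its first scaffold has been laid down. The 10 genes described here, Lce1a1, Lce1a2, Lce1b, Lce1c, Lce1d, Lce1e, Lce1f, Lce1g, Lce1h and Lce1i, were taken as all probes of the array, control features left out, whose RefSeq accession belongs to one of these symbols. They were represented by 13 of 55681 probes, and all 10 were among the 23254 genes and other targets tested, out of 36799 on the array. Lce1a2, Lce1c and Lce1i had a second probe, and the Lce1b probe was printed as 10 spots on each array. Close paralogues may hybridize to each other's probes, and this was not tested.

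The samples were back skin epidermis of C57BL/6 newborn (P0) mice, separated from the dermis with dispase and dissociated with trypsin. The 4 EED cKO samples came from K14-Cre; EED flox/flox mice, which lose the Polycomb repressive complex 2 (PRC2) subunit EED in Krt14-expressing epidermal cells and their progeny, whereas other cells of the preparation keep it. The 4 control samples are labelled only as control. The study describes Cre-negative siblings as controls for another assay of such epidermis, and does not say so explicitly for the arrays. Each sample was labelled with one dye and hybridized against Universal Mouse Reference RNA in the other dye, a commercial RNA pool that was the same material on every array. The sample was in Cy3 on replicates 1 and 3 and in Cy5 on replicates 2 and 4 of both genotypes. The comparison asks how epidermal gene expression differed when EED was lost. All 8 arrays shared one slide and one scan, with EED cKO in one row of the slide and control in the other, so genotype and slide row cannot be told apart. In the sample channel 51.5% to 65.5% of the non-control spots passed the scanner software's limit for a signal well above background. Eed itself was lower in every EED cKO sample, by 1.46 ± 0.09 (SE) on the log2 scale (limma, adjusted p = 2.14e-05), and its reference signal differed by only -0.09 (adjusted p = 0.67).

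In the epidermis, basal keratinocytes leave the cell cycle, move upward and build a cornified envelope of proteins crosslinked by transglutaminases under the plasma membrane. Loricrin, involucrin and the small proline-rich proteins form much of that envelope, and late cornified envelope proteins join it in the outermost living layers. Many of these genes lie side by side in the epidermal differentiation complex, a cluster whose genes are switched on as keratinocytes differentiate. PRC2 places the repressive mark H3K27me3, and EED binds that mark and is needed for the activity of the complex.

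In RefSeq's order (assembly GRCm38.p6) the 10 genes follow one another without a gap in the Lce series of chromosome 3, as Lce1a1, Lce1b, Lce1a2, and then Lce1c to Lce1i. They lie between Lce6a on one side and Lce1j, Lce1k, Lce1l and the 6 Lce3 genes on the other, with Lce1m beyond the Lce3 genes. The bases in front of the transcription start, from RefSeq's GRCm38.p6 annotation, were found for 9 of the 10 genes, the exception being Lce1f. They are shown because the members lie beside each other. As described further on, the members moved together in the signal of the sample channel and in that of the reference channel, and little in the ratio. The 110 bases before the start are given for Lce1a1 (chr3:92648308-92648417, minus strand), Lce1c (chr3:92679137-92679246, plus strand), Lce1g (chr3:92752339-92752448, minus strand) and Lce1h (chr3:92765066-92765175, minus strand), and for comparison for Lce3f (chr3:92992107-92992216, plus strand). Each reads 5′ to 3′ on the gene's strand and ends at the base before the start, and capitals mark CATGTG or its reverse complement, ACTGTCTCAC and ATAAAA.
Lce1a1: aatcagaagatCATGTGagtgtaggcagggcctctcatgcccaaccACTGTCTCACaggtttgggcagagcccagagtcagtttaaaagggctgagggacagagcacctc
Lce1c: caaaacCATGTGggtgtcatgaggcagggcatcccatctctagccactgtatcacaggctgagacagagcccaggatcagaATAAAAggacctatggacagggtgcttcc
Lce1g: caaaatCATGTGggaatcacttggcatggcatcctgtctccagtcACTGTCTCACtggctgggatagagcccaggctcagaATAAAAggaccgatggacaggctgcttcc
Lce1h: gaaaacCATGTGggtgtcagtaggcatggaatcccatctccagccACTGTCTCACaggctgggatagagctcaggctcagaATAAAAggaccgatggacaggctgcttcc
Lce3f: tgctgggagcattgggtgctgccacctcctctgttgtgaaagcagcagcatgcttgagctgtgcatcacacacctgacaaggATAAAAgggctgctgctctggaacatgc

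Over these 110 bases, aligned pairwise from end to end, the 9 Lce1 sequences were 70.9% to 89.1% identical (median 79.1% of 36 pairs), with Lce1g and Lce1h the most alike. Against the 6 Lce3 genes the identity was 51.8% to 63.6% (54 pairs). ACTGTCTCAC was the longest run of letters found in the 250 bases before the start of at least 8 of the 9 members. It began 64 or 65 bases before the start in these 8 and was absent from Lce1c. On either strand it occurred in 43 of 32851 promoters (0.131%), the members included. Since the run was picked for being shared by members, that share does not tell how unusual the sharing is. Among the other Lce genes the run was found in Lce1j alone. ATAAAA, letters typical of the A/T-rich element that positions transcription starts, began 29 bases before the start in 8 of the 9 members, against 17.0% of all promoters that held it anywhere in the 250 bases on either strand. All 10 other Lce genes held it as well. CATGTG was present in 7 of the 9, beginning 99 to 104 bases before the start (and again further up in Lce1b), against 12.3% of all promoters. Of the 10 other Lce genes, 4 held CATGTG as well (Lce1k, Lce1l, Lce1m and Lce3b). The exact TATA box letters TATAAA, which overlap ATAAAA, were found in Lce1d alone among members and in 12.4% of all promoters. TGANTCA, the core of the AP-1 site, was found in none of the 9 and in 6.75% of all promoters. These matches describe letters in a window and do not show a bound factor.

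Relative to the reference RNA, the Lce1 genes differed little between genotypes. The unit here is the log2 ratio of sample over reference, in which a difference of 1 is 2-fold. None of the 10 genes passed both an adjusted p below 0.05 and a 2-fold difference in limma, a combination reached by 278 of 23254 genes and other targets (1.20%). At an adjusted p below 0.05 with any fold, 2 of the 10 were higher and 0 lower in EED cKO, where 11.8% of everything tested was higher. The same 2 members had an unadjusted p below 0.05. The median difference of the members was 0.07, beside 0.02 over all genes tested, and single members ranged from -0.13 to 0.41. The sign was positive for 7 members and negative for 3.

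The members that passed were Lce1g and Lce1h, neighbours in the cluster. The log2 ratio of Lce1g was 4.21, 4.45, 4.32 and 4.77 in EED cKO replicates 1 to 4 and 4.00, 4.13, 4.02 and 3.96 in control replicates 1 to 4. All EED cKO values lay above all control values, a separation seen in 1 of the 10 members and in 9.65% of all genes tested. The difference was 0.41 ± 0.10 (SE; 1.33-fold, adjusted p = 0.0185). For Lce1h the values were 4.28, 4.73, 4.39 and 5.00 in EED cKO and 3.96, 4.42, 4.08 and 4.45 in control. The groups overlapped across dyes, yet EED cKO was higher in every one of the 4 pairs of the same replicate number and dye. The difference was 0.37 ± 0.08 (SE; 1.30-fold, adjusted p = 0.0117). Both calls were lost with the authors' table of log2 ratios, where Lce1g differed by 0.37 (adjusted p = 0.074) and Lce1h by 0.27 (adjusted p = 0.093), and also with the Feature Extraction log ratio, without the dye term, with an intensity trend and by the methods' test after Benjamini-Hochberg adjustment.

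The remaining 8 members gave small differences of either sign. Lce1a1, at the other end of the run, had log2 ratios of 3.80, 4.31, 3.90 and 4.46 in EED cKO and 4.21, 4.38, 4.01 and 4.37 in control. Its groups overlapped, with a difference of -0.13 (95% interval -0.32 to 0.06, adjusted p = 0.32). Lce1d came closest to no difference, at 0.01 (95% interval -0.19 to 0.20, adjusted p = 0.98), and Lce1f followed at 0.01 (-0.21 to 0.24, adjusted p = 0.94). Lce1c gave -0.09 and Lce1e -0.06, while Lce1b gave 0.13, Lce1a2 0.14 and Lce1i 0.15, with adjusted p-values of 0.27 to 0.70. For the brighter probe of these 8 the 95% intervals of the difference lay between -0.32 and 0.35, short of 2-fold. The signs of Lce1a1, Lce1c, Lce1d, Lce1e and Lce1f turned under at least 1 other normalization, choice of probe or set of arrays. The 10 Lce1b spots of an array had an SD of 0.04 to 0.09 in their log2 ratio. That is scatter between spots of the same probe within an array, and it does not cover technical variation between arrays.

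Members were also compared with each other, by the difference between their log2 ratios on each array. Of the 45 pairs, 16 reached the smallest two-sided p that an exact permutation of 4 against 4 arrays allows (p = 0.029), and none stayed below 0.05 after Benjamini-Hochberg adjustment over the 45 pairs (adjusted p = 0.0804 for those 16). Lce1h took part in 6 of the 16 and Lce1g in 5. The largest gap was that of Lce1g and Lce1a1, at 0.54. More pairs than these 16 would have had to reach the smallest p for any to pass, so the adjusted test says little at this number of arrays.

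The second probes did not all give the same answer. A second Lce1a2 probe had a difference in log2 ratio of 0.81 ± 0.12 (SE; 1.76-fold, adjusted p = 0.0026), against 0.14 for the brighter probe used above. The second Lce1c probe gave 0.33 ± 0.08 (adjusted p = 0.0232), against -0.09. Both Lce1i probes were close, at 0.10 and 0.15. With probes counted singly, 4 of 13 passed an adjusted p below 0.05, all higher, and none reached 2-fold.

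The signals behind these ratios did differ. Each channel was also taken alone, after the same loess step and quantile normalization between arrays of the mean log intensity of both channels. The sample channel of all 10 members was then higher in EED cKO. The differences ranged from 0.93 to 1.53 on the log2 scale (1.91- to 2.89-fold) with a median of 1.23 (2.35-fold), beside 0.01 over all genes tested. All 10 passed an adjusted p below 0.05 (0.000589 to 0.0048), against 9.00% of everything tested that was higher by the same rule. At 2-fold or more, 7 of the 10 passed, beside 1.20% of everything tested. All 4 EED cKO values lay above all 4 control values in each of the 10 members, which held for 9.07% of all genes tested. Such a separation fixes the two-sided exact permutation p of each member at 0.029, the smallest possible, so that test adds nothing to it.

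**Figure D1:**
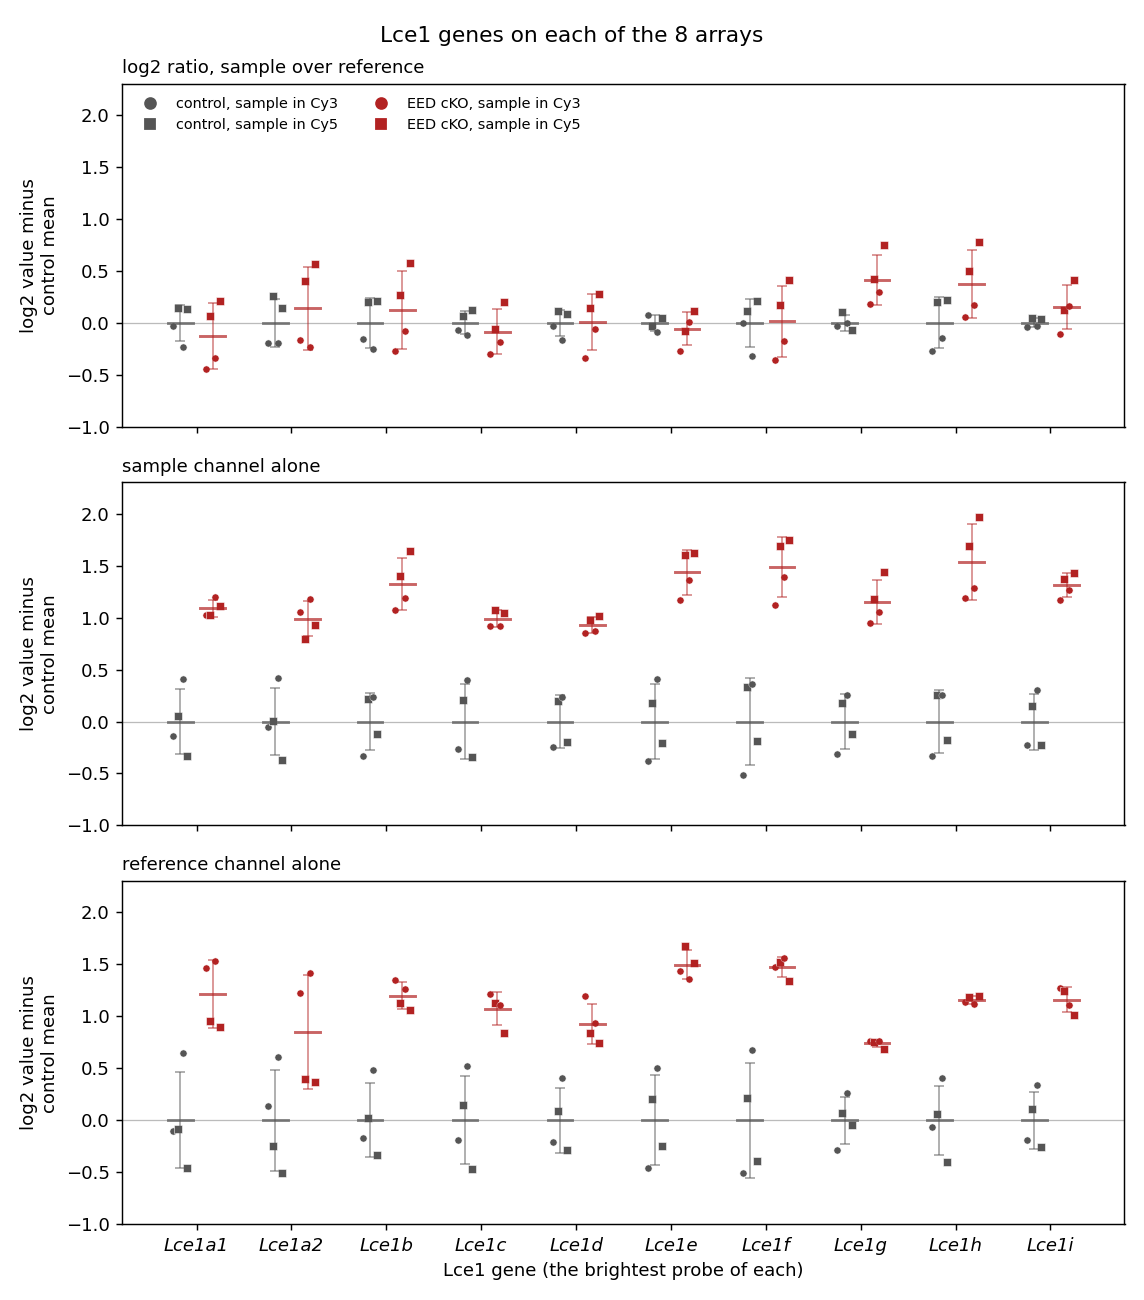
Log2 values of the 10 Lce1 genes on each of the 8 arrays, minus the control mean of that gene, for the ratio of sample over reference (top), the sample channel alone (middle) and the reference channel alone (bottom). Points are arrays, circles with the sample in Cy3 and squares in Cy5, and lines and bars are the mean and SD of 4 arrays; EED cKO and control overlap in the ratio for every gene but Lce1g, and separate in the sample channel for all 10.

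Lce1h had the widest gap. Its log2 sample signal was 13.55, 14.05, 13.65 and 14.33 in EED cKO replicates 1 to 4 and 12.03, 12.62, 12.62 and 12.19 in control replicates 1 to 4. Every EED cKO array was above every control array, by 1.53 ± 0.17 (SE; 2.89-fold, adjusted p = 0.000866). Lce1f showed 14.91, 15.48, 15.18 and 15.54 in EED cKO and 13.28, 14.12, 14.15 and 13.60 in control. Its difference was 1.49 ± 0.19 (SE; 2.81-fold, adjusted p = 0.00178), although its ratio differed by only 0.01. Lce1e gave 15.02, 15.46, 15.22 and 15.48 in EED cKO and 13.48, 14.04, 14.26 and 13.65 in control, a difference of 1.44 ± 0.17 (SE; 2.71-fold, adjusted p = 0.00134). Control replicate 1 was lowest for both Lce1e and Lce1f. Lce1b (2.50-fold), Lce1i (2.48-fold), Lce1g (2.22-fold) and Lce1a1 (2.12-fold) also passed 2-fold. Lce1a2 and Lce1c, both 1.98-fold, and Lce1d, 1.91-fold, fell just short of it. The smallest difference was that of Lce1d, from 14.72, 15.16, 15.20 and 14.76 in control to 15.81, 15.94, 15.83 and 15.97 in EED cKO, again without overlap.

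This pattern held in each dye. With the sample in Cy3 the differences of the 10 members were 0.85 to 1.33, and with the sample in Cy5 they were 1.00 to 1.79. The second probes gave 1.29 for Lce1a2, 1.35 for Lce1c and 1.49 for Lce1i in the sample channel. It was also visible before any normalization. Comparing arrays of the same replicate number and dye, the median spot signal of the members in EED cKO over control was 2.98-fold for replicate 1, 2.00-fold for replicate 2, 1.70-fold for replicate 3 and 2.49-fold for replicate 4. The probes that passed the filter had medians of 1.02-, 0.90-, 0.94- and 0.79-fold in the same 4 pairs. For Lce1h these scanned signals were 7470, 17398, 7894 and 15508 in EED cKO and 2290, 7238, 4487 and 4616 in control. No member's spot was saturated in either channel, carried an outlier flag or missed the limit of well above background on any array.

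The reference channel rose alongside. Every array carried the same reference RNA, and in its channel 64 of 23254 genes and other targets were higher on EED cKO arrays at an adjusted p below 0.05 (0.275%). All 10 Lce1 members were among those 64. Their reference signal was higher by 0.74 to 1.49 on the log2 scale (1.67- to 2.82-fold), with a median of 1.16 and adjusted p-values of 0.00222 to 0.0172. At 2-fold or more, 7 members passed, among 17 of everything tested (0.0731%). For 9 of the 10 the lowest EED cKO array was higher than the highest control array, against 1.36% of all genes tested, the exception being Lce1a2.

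Lce1e had the largest reference difference of the members. Its log2 reference signal was 12.10, 12.34, 12.02 and 12.17 on EED cKO arrays and 10.21, 10.87, 11.16 and 10.41 on control arrays, so that all EED cKO arrays were higher, by 1.49 ± 0.17 (SE). The reference signal of Lce1h was 9.27, 9.33, 9.25 and 9.33 on EED cKO arrays and 8.07, 8.19, 8.55 and 7.74 on control arrays, a difference of 1.16 ± 0.12 (SE). Its sample signal differed by 0.37 more than that, which is the difference found in the ratio. Lce1g had the smallest reference difference, 0.74 ± 0.09 (SE), and the largest difference in the ratio. As scanned, the Lce1e reference signal was 4234, 5416, 5476 and 4754 on EED cKO arrays and 1404, 2268, 2838 and 1695 on control arrays.

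**Figure D2:**
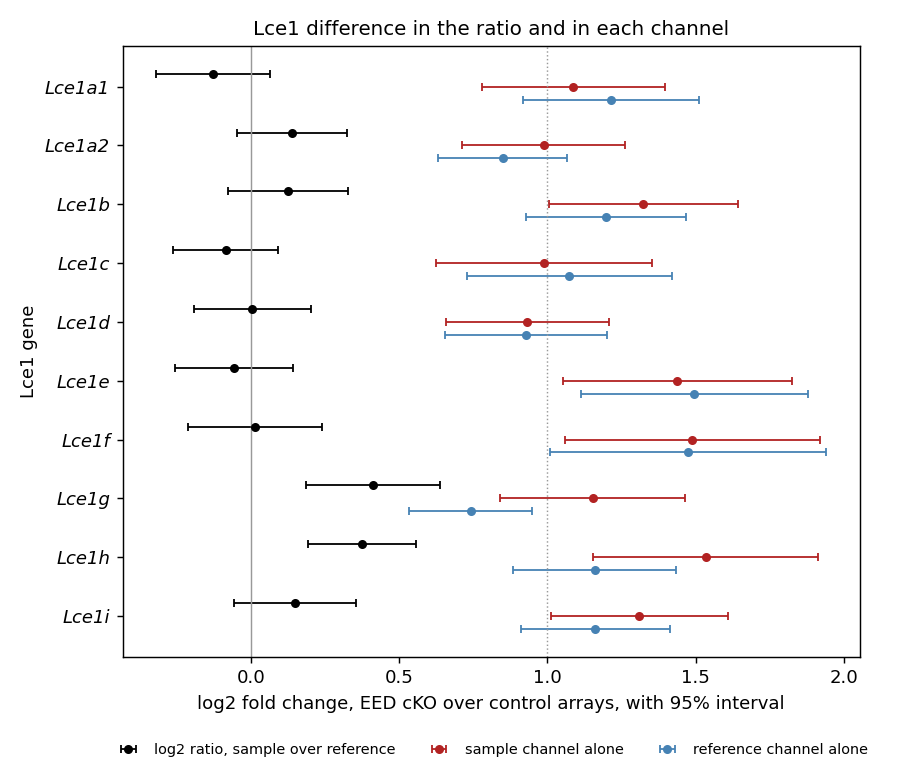
Difference between EED cKO and control arrays with its 95% interval for each Lce1 gene, in log2 units, for the ratio of sample over reference and for each channel alone; the dotted line is 2-fold. The sample channel (0.93 to 1.53) and the reference channel (0.74 to 1.49) both moved up, and their ratio stayed between -0.13 and 0.41.

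The 7 other genes and targets higher by 2-fold or more in the reference channel, apart from the members and the 3 Lce3 genes Lce3b, Lce3c and Lce3e, were Defb14, Krt16, Krt12, Il1f6, 2310050C09Rik, Crct1 and Lce1j. Each was higher in the sample channel as well, by 1.21 to 3.85. They are named after their values were seen. Fzd10 was the 1 target lower by 2-fold or more. Other bright genes did not all shift in this way. At 81 other genes, the mean log2 ratio and mean sample signal were at or above those of the lowest member. Their median reference difference was -0.00, with 7 higher and 5 lower at an adjusted p below 0.05. Of everything tested, 64 of 23254 were higher and 50 lower by that rule. Krt16, 2310050C09Rik and Crct1, named above, were among the 81. The median sample difference of the 81 was 0.18, beside 1.23 for the members. These 81 genes were chosen by level alone, and the part of level in the reference difference was not tested. Loricrin (Lor), the main protein of the envelope, is a bright gene of the same complex, and its reference signal differed by 0.22 (adjusted p = 0.74) and its sample signal by 0.31 (adjusted p = 0.26). Why the reference signal at the Lce1 probes followed genotype, or slide row, was not tested. Because the ratio subtracts it, the ratio and the sample channel give different answers on how far Lce1 expression differed, and which of them gives the difference in Lce1 RNA was not tested.

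**Figure D3:**
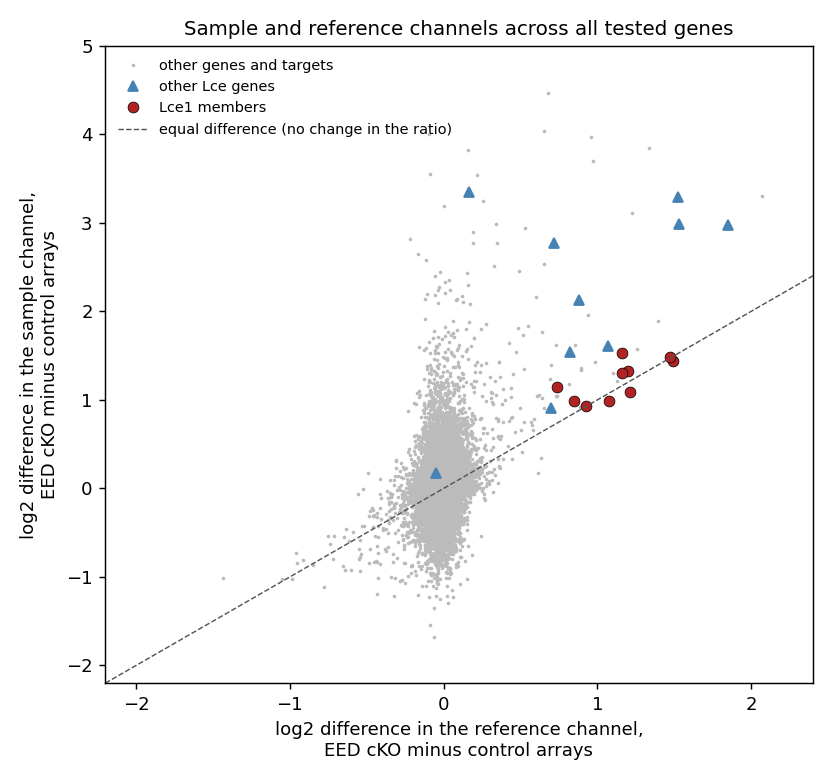
Difference between EED cKO and control arrays in the sample channel (vertical, log2) against that in the reference channel (horizontal, log2) for all 23254 genes and other targets, with the 10 Lce1 members in red and other Lce genes as triangles. The dashed line marks equal differences, where the ratio does not change; the members lie beside it, between 0.74 and 1.49 in the reference and 0.93 and 1.53 in the sample channel, away from the bulk near 0.

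The other Lce genes differed more in the ratio. Of the 10 tested (Lce1j to Lce1m and Lce3a to Lce3f), 8 were higher and 0 lower at an adjusted p below 0.05, and 6 reached 2-fold. The largest differences in log2 ratio were those of Lce3f (3.19 ± 0.14 SE, adjusted p = 2.54e-06), Lce3d (2.05 ± 0.23, adjusted p = 0.000668) and Lce3e (1.76 ± 0.27, adjusted p = 0.00251). Their median difference in log2 ratio was 1.19, beside 0.07 for the 10 members. Lce3 genes encode envelope proteins known for their induction in disturbed skin. Lce1k (1.25), Lce1l (0.72) and Lce1j (0.54), next to the members on the chromosome, also passed in the ratio, and Lce1m (0.21) and Lce3a (0.22) did not. In the reference channel 7 of these 10 were higher at an adjusted p below 0.05, with Lce3c highest at 1.85, whereas Lce3f differed by 0.16 (adjusted p = 0.51).

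**Figure D4:**
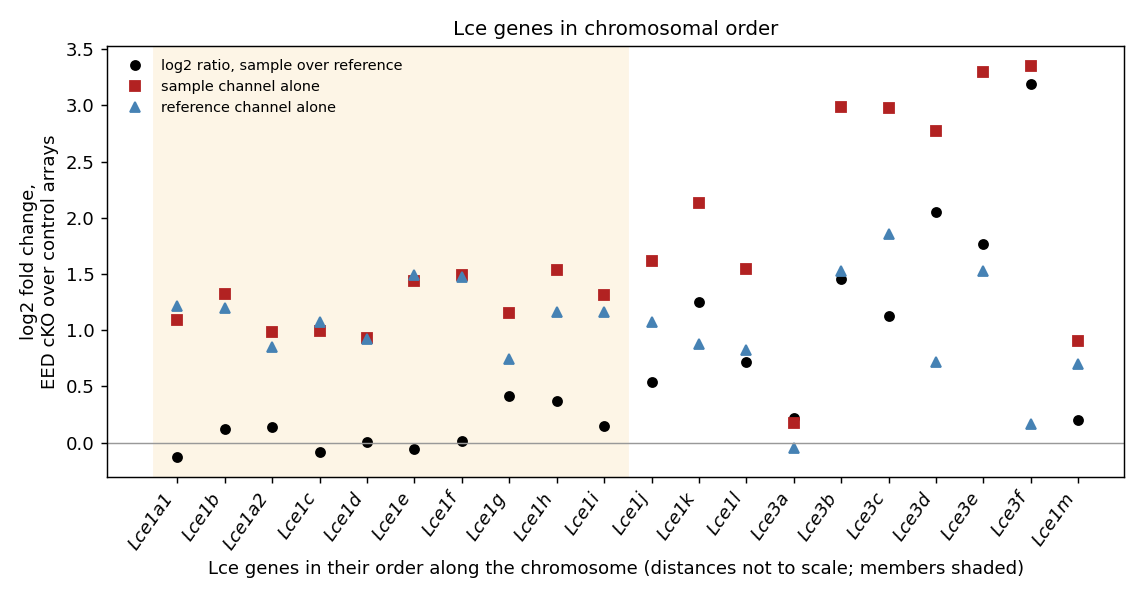
Difference between EED cKO and control arrays (log2) for the 20 Lce genes tested, in their order along the chromosome without scale, for the ratio and for each channel; the 10 members are shaded. The ratio runs from -0.13 at Lce1a1 to 0.41 at Lce1g within the members and reaches 3.19 at Lce3f.

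Other genes of the pathway were read from lists. Of all 23254 genes and other targets, 2733 were higher (11.8%) and 2298 lower in the ratio at an adjusted p below 0.05. Of 18 tested cornified envelope and fused-S100 genes of the epidermal differentiation complex outside the Lce group, 12 were higher in the ratio at an adjusted p below 0.05, 0 were lower and 5 reached 2-fold, with a median difference of 0.61. The largest were Sprr2g (2.32 ± 0.25 SE), Sprr1a (1.56 ± 0.23) and Sprr1b (1.50 ± 0.28), small proline-rich envelope precursors. In the reference channel 2 of these 18 were higher, Sprr1a (0.25) and Crct1, the latter by over 2-fold as given above. Of 24 suprabasal and granular layer genes outside the complex, 5 were higher and 0 lower, with a median of 0.19. The largest were Krt2 (1.00 ± 0.12), a keratin of the upper layers, Cst6 (0.69 ± 0.15), a protease inhibitor that restrains envelope crosslinking, and Spink5 (0.58 ± 0.15), an inhibitor of the kallikreins that shed corneocytes. Among 23 transcription factors known in epidermal differentiation, 2 were higher and 5 lower, with a median of -0.13. Ehf (1.62 ± 0.18), an ETS factor of epithelia, was higher, whereas Fosl2 (-0.96 ± 0.12), an AP-1 subunit, was lower. Klf4, which is needed for the skin barrier, differed by -0.70 ± 0.14 (adjusted p = 0.00748), and is named after its value was seen.

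Markers of the cell types that the preparation could hold were read from lists as well. The 7 suprabasal keratinocyte markers passed the filter, and none differed at an adjusted p below 0.05 in the ratio or in the sample channel. Their summed sample signal was 272156 to 348247 in EED cKO and 229424 to 375405 in control. Of the 7 basal keratinocyte markers, 4 were lower in the ratio and 6 in the sample channel. Over all 23254 genes and other targets, 2733 were higher and 2298 lower in the ratio, and 2074 were lower in the sample channel. In the reference channel 2 of the 7 basal markers were lower, beside 50 of everything tested, with a median difference of -0.15. The summed sample signal of the basal markers was 214603 to 256322 against 256514 to 319498. All 6 Merkel cell markers were higher, with a summed signal of 1956 to 2381 against 1226 to 1602. In the ratio, the markers higher among those tested were 4 of 9 for hair shaft and inner root sheath, 2 of 7 for dermal fibroblasts, 2 of 6 for immune cells and 2 of 2 for endothelial cells, and 0 of 7 for melanocytes (1 was lower), 0 of 3 for skeletal muscle and 0 of 2 for erythroid cells. Markers not tested because they were too dim included Cdh5, Tek and Emcn of endothelial cells, Cd207 of immune cells, Krt25 of the inner root sheath, and Myh3 and Ckm of skeletal muscle. The part of these shifts in the Lce1 signals was not tested, and in such bulk samples more cells of a type and more RNA per cell cannot be told apart.

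The genes with the profile most like the members' were sought by the root mean square difference between a gene's 8 log2 ratios and the mean of the 10 members, each centred and with the dye effect removed. Efcab7 (0.02), Erc1 (0.03), Acr (0.03), 2810006K23Rik (0.03) and Phactr1 (0.03) were closest, beside 0.03 to 0.17 for the members themselves. These 5 genes differed between genotypes by 0.07 to 0.10, so the likeness in the ratio is that of nearly flat profiles. In the sample channel, a comparison added after the values were seen, the closest were Crct1 (0.07), Arg1 (0.11), 2310050C09Rik (0.12), Gramd1c (0.12) and Lelp1 (0.12), beside 0.05 to 0.17 for the members. They differed by 1.11 to 1.31 in the sample channel, a size that the search itself selects for. Of these 5, Crct1 and Lelp1 belong to the epidermal differentiation complex, and this was not set against a share over all genes.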

How the data were processed

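RNA of 4 EED cKO and 4 control P0 epidermal samples was hybridized by the authors against Universal Mouse Reference RNA on 2-colour Agilent SurePrint G3 Mouse arrays with dye swaps. Deposited per array are Agilent Feature Extraction (version 12.0.1.1, per the submitters' processing notes) spot intensity values and log10 ratios of red over green. The deposited series table holds the authors' log2 ratios of sample over reference, with column medians of 0.03 to 0.14. For 1-spot probes they differed from the Feature Extraction log ratio by less than 0.01 in 89.0% of values and by at most 0.519. Probes with more spots were not compared. The authors' processing is otherwise not given in the sources used here. The methods name GeneSpring and a t-test.

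Median spot intensities were background-corrected (normexp, offset 50) and normalized by loess within arrays in limma 3.58.1 (R 4.3.3), with control and outlier-flagged spots given no weight. Spots of a probe were averaged, and the probe with the highest mean intensity stood for a gene. A gene was tested where its sample signal was flagged as well above background on 3 or more of the 4 arrays of either genotype. Missing values of flagged spots (19 in all) were filled by the mean of the gene's genotype. The fit had genotype and dye as terms, with Benjamini-Hochberg adjustment over all 23254 targets and calls at an adjusted p of 0.05 and 2-fold. Single channels were taken after loess and Aquantile and fitted alike. Probe accessions were matched to RefSeq symbols (28026 of 29796), and bases before gene starts came from RefSeq (GRCm38.p6), aligned with Biopython 1.88. The number of arrays limits the precision. In data simulated for this comparison over 23254 genes, 198 and 199 of 200 genes changed 3-fold were recovered in 2 runs, and 0 others called. Smaller changes were not simulated, so this recovery does not apply to the Lce1 differences, which were all below 3-fold.

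Same-numbered arrays of both genotypes share a dye pattern and a slide column, and their deviations from the group means correlated at 0.33 to 0.68. With the dye removed the correlation was 0.13 for replicates 1 and 3 and 0.46 for replicates 2 and 4. These values do not show whether the numbers pair the samples beyond dye and slide column, and the main fit held no pairing. The labels call the samples biological replicates. Members and lists were chosen with earlier results of these data known. The rule for named genes took the 10 members with every probe, up to 3 genes per list with the largest change at an adjusted p below 0.05, the 5 nearest profiles in the ratio and Eed. Outside it, chosen after their values were seen, are the other Lce genes, Lor, Klf4, the genes at 2-fold in the reference channel and the nearest profiles in the sample channel. One gene that the rule names is not reported here.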

Additional observations from a re-analysis of the deposited data

Results flagged for a closer look

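All 10 Lce1 genes had a higher signal on EED cKO arrays in the reference channel at an adjusted p below 0.05 (limma), a channel that enters the comparison of genotypes only as the denominator of the ratio and that carried the same RNA on every array. They were 10 of the 64 genes and other targets that did so, and 7 of the 17 at 2-fold or more. In the reference channel Lce1g on EED cKO replicate 4, at 10.36, stood apart from 10.43, 10.42 and 10.43 on the other 3, a gap of 0.890 of the group's range. It was 1 of 60 groups of 4 arrays examined, and chance flags about 1 in 20.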

How the results depend on the processing

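Over 24 other settings the ratio gave 0 Lce1 genes changed by 2-fold, except in the sample channel alone, where 7 were. The number with an adjusted p below 0.05 was 2 in the main fit and 0 with the Feature Extraction log ratio, with the deposited log2 table, without the dye term, with an intensity trend and by the methods' t-test after Benjamini-Hochberg (1 unadjusted). In those settings Lce1g differed by 0.37 to 0.41 (adjusted p = 0.054 to 0.125) and Lce1h by 0.27 to 0.37 (0.058 to 0.328). The number was 3 with median centring (with Lce1i, 0.30, adjusted p = 0.046) and with the median over probes (with Lce1a2, 0.48, adjusted p = 0.0103), 4 of 13 with every probe on its own, 10 in the sample channel alone, and 1 to 2 without single arrays (1 without control replicate 2, where Lce1g had an adjusted p of 0.0528). Without single arrays the count changed by 2-fold stayed at 0 and the median at 0.00 to 0.13. The median difference was 0.20 with median centring and 1.23 in the sample channel alone. With the replicate block in place of the dye, 0 members were changed by 2-fold, 2 passed an adjusted p below 0.05 and the median was 0.07, and the block changed no call in either channel. The adjusted test of member pairs can hardly pass at this number of arrays, so its count of 0 under 14 other settings says nothing about stability. Signs turned for Lce1a1, Lce1c, Lce1d, Lce1e and Lce1f. Without background correction Lce1d gave -0.0077 and Lce1f -0.0074, and with Feature Extraction's log ratio, as with the authors' table, Lce1d gave -0.047 and Lce1f -0.084. Median centring gave 0.0284 for Lce1a1, 0.0288 for Lce1c and 0.119 for Lce1e, and Lce1c gave 0.121 over the median of its probes and 0.328 (adjusted p = 0.0232) by its other probe. The sample channel gave 1.09 for Lce1a1, 0.99 for Lce1c and 1.44 for Lce1e. With single arrays left out, Lce1d ranged from -0.042 to 0.082, Lce1e from -0.108 to 0.0127 and Lce1f from -0.059 to 0.0996. The cause was not tested. Settings added after seeing the data left 6 to 10 members changed by 2-fold in the sample channel (10 at any fold throughout) and 5 to 8 in the reference channel (7 to 10 at any fold).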
